A study of Homo sapiens with 7 samples.

Results

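SOX2, SOX4, SOX7, SOX9, SOX12, SOX13, SOX15 and SOX21, 8 transcription factors of the SOX family, and the long non-coding RNA SOX2-OT were followed by RNA-seq in esophageal squamous cell carcinoma cells after shRNA silencing. These 9 genes were taken by name from 56236 genes with a transcript in the annotation used, and each was read in all 7 libraries. The cells were TE5 and KYSE140, established human lines of this carcinoma. TE5 had 4 libraries, with a non-targeting scramble shRNA or an shRNA against SOX2, TP63 or CCAT1, and KYSE140 had 3, with scramble, SOX2 or TP63 shRNA. TP63 encodes a master transcription factor of squamous epithelium, and CCAT1 is a long non-coding RNA. The study cloned its hairpins into a lentiviral vector, so that every library, the scramble controls included, came from cells carrying an shRNA construct. Each condition had a single library, and the labels name no further hairpin or culture, so within a line nothing measures the spread between replicates. The silencing libraries of TE5 shared a sequencing lane, as did those of KYSE140, whereas each scramble library was sequenced in another lane, and that of TE5 on another flow cell than the other 6 libraries.

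SOX proteins bind DNA through a shared HMG box and usually act together with a partner factor. SOX2 maintains stem cells and the basal layer of the esophagus, and its locus is often amplified in squamous cancers together with TP63. SOX2-OT is a long gene on the same strand that holds SOX2 inside an intron. SOX21 belongs to a related group of mostly repressive SOX proteins, SOX4 and SOX12 act in progenitor cells, SOX9 acts in cartilage and in ductal and columnar progenitors, SOX7 in endothelium and endoderm, SOX13 is a SOXD protein without an activation domain of its own, and SOX15 is the single member of group G.

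The estimated counts, the reads that Kallisto assigned to each transcript, summed to between 68532611 and 98036494 per library. Squamous epithelial markers were present, with 9 of 10 at 1 TPM or more in every library (TPM is a level scaled for transcript length and library size), whereas 4 of 6 fibroblast, 3 of 5 leukocyte and 1 of 2 endothelial markers stayed under 1 TPM in every library. Columnar epithelial markers were present in part, with 2 of 7 at 1 TPM or more and 4 under it in every library, and their sum lay between 827 and 1920 TPM. TP63 had 26924 normalized counts in TE5 scramble against 6787 in its shTP63 library (normalized counts are scaled between libraries), and 47336 against 12326 in those of KYSE140. The level of CCAT1 was not analysed here.

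SOX2 lies at chr3:181429713-181432224 (hg19, forward strand) as a gene of 1 exon, and SOX2-OT runs from position 180707550 to 181554668 of the same strand, a span of 847.1 kb. The files held 35 SOX2-OT transcripts, of which 22 spanned SOX2 and 0 had an exon base over it. The 4 windows below are the 250 bases before the start of SOX2 and before that of 1 transcript from each of the 3 groups of SOX2-OT starts that carried nearly all of its counts (ENST00000498731, ENST00000492337 and ENST00000466034). Each SOX2-OT window also holds the start of another SOX2-OT transcript. These are ENST00000472856 (position 181281498), ENST00000476964 (181328122) and ENST00000477928 (181417281). The last of them had more counts than ENST00000466034 in TE5 scramble (54.6 against 17.5). The windows are shown because both genes were lower in the shSOX2 libraries, and they were chosen after those values had been seen. Capitals mark ACAATG and ACAAAG, 2 words that SOX HMG boxes are known to bind, searched on both strands without overlap between them. The SOX2 window is chr3:181429463-181429712, and those of SOX2-OT are chr3:181281286-181281535, chr3:181328003-181328252 and chr3:181417073-181417322, all read from the hg19 genome on the forward strand.
SOX2: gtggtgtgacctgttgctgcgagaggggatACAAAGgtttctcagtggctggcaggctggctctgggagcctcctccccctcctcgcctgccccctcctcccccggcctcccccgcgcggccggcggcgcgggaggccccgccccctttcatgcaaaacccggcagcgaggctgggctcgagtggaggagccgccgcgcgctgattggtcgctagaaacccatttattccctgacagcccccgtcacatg
SOX2-OT, the first start: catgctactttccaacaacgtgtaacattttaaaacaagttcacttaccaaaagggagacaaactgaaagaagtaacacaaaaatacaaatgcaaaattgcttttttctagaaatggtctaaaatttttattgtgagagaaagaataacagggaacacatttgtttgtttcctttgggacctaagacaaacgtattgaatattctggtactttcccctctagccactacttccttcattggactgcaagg
SOX2-OT, the second start: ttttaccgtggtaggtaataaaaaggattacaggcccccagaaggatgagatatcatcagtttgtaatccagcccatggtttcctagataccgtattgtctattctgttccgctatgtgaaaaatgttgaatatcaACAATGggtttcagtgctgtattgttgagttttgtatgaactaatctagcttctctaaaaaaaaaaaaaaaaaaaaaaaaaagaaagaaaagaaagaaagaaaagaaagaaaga
SOX2-OT, the third start: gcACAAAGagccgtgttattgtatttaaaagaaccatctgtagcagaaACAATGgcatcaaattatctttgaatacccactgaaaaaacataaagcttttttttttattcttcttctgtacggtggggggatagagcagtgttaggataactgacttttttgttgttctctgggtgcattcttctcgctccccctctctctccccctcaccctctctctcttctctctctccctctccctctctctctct
The SOX2 window held 1 ACAAAG, the window before the second SOX2-OT start 1 ACAATG, and the window before the third start 1 of each. The window before the first start held neither word. Windows of the same length before SOX9 and SOX21, read as well but not shown, also held neither word. SOX21 too was below scramble in the shSOX2 libraries. Among 20152 windows of the same length before protein-coding genes, 7.6% held ACAATG, 12.2% ACAAAG and 18.5% either of them. G and C made up 68.8% of the SOX2 window and 34.8%, 32.4% and 42.8% of the 3 SOX2-OT windows in the order shown. The protein-coding windows were not matched to these shares, so their percentages are no measure of enrichment. A match is a run of letters and was not tested as a binding site.

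SOX2 was the most abundant of the 9 genes in every library but TE5 shSOX2, where SOX13 stood above it. In the scramble libraries, SOX2 stood at 89.6 TPM in TE5 and 191 TPM in KYSE140. SOX13 followed with 52.9 and 48.4 TPM. SOX15 stood at 35.5 and 28.5 TPM, and SOX4 at 15.5 and 40.5 TPM. SOX2-OT had 7.67 and 22.7 TPM, SOX21 7.13 and 9.03 TPM, SOX9 6.21 and 1.55 TPM, and SOX12 1.53 and 6.44 TPM. Neighbours in this order traded places between libraries of the same line. In TE5, SOX2-OT (4.02 to 14.6 TPM), SOX21 (3.42 to 7.13 TPM) and SOX9 (4.6 to 17.2 TPM) overlapped. In KYSE140, SOX4 (37.8 to 54.4 TPM) and SOX13 (41.3 to 50.1 TPM) overlapped as well.

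The lines differed most in SOX7. Its TPM was 21.4 in TE5 scramble and 0.146 in KYSE140 scramble, and the normalized count, the estimated count scaled between libraries, was 3768 against 28.3, a 129-fold difference. Of the 31-base words of the SOX7 transcript, 42.07% also occur in other genes, mostly in PINX1, so that part of its reads cannot be placed by sequence and SOX7 values are uncertain. PINX1 stood between 10 and 19.4 TPM in all 7 libraries, and was close in the scramble libraries (15 TPM in TE5, 16.8 in KYSE140). SOX9 was also higher in TE5, with 1351 against 372 normalized counts (3.63-fold). SOX12 was 4.64-fold, SOX4 2.88-fold, SOX2 2.35-fold and SOX2-OT 2.27-fold higher in KYSE140. SOX13 and SOX15 were close between the lines, with log2 differences of TE5 over KYSE140 of -0.04 (95% interval -0.09 to 0.01) and 0.15 (0.05 to 0.25). These intervals, like those that follow, cover counting error only.

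**Figure D1:**
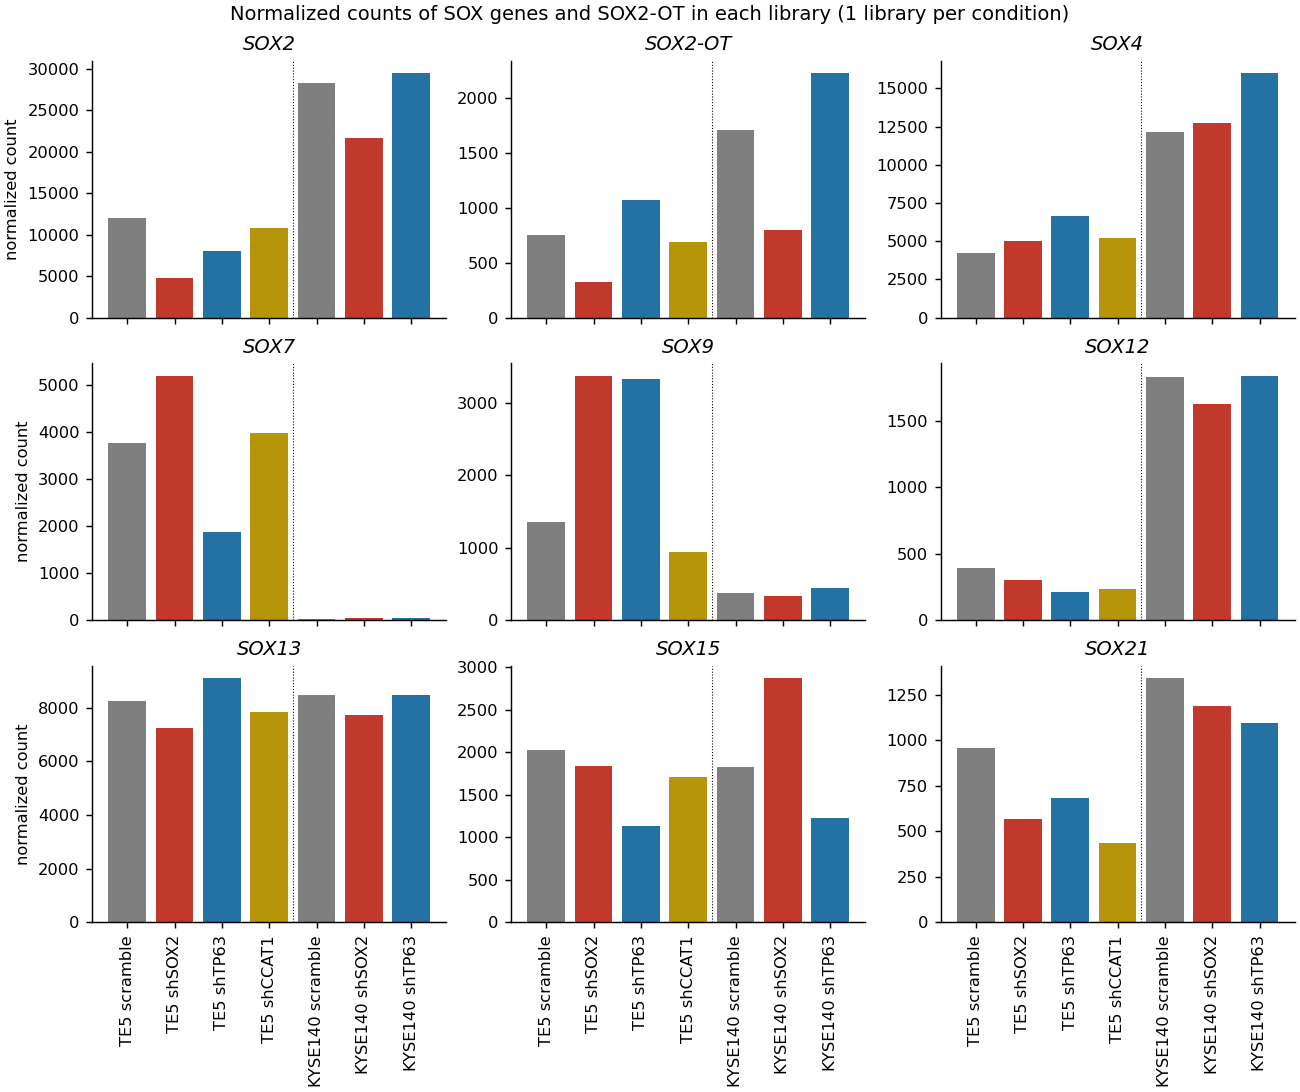
Normalized count (vertical axes, starting at 0) of each of the 9 genes in the 7 libraries, each bar 1 library (grey scramble, red shSOX2, blue shTP63, yellow shCCAT1), with TE5 left and KYSE140 right of the dotted line. SOX7 stands at 1877 to 5207 in TE5 and at 28.3 to 50.5 in KYSE140, and SOX2-OT is lowest in the shSOX2 library of each line.

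The comparison of the shSOX2 with the scramble library asked how the family followed the loss of SOX2. The target itself was reduced unequally in the lines, and SOX2-OT was lower in both by a similar amount. In TE5, SOX9 was higher and SOX21 lower, whereas in KYSE140 SOX15 was higher. A change past 2-fold was counted where the log2 fold change of normalized counts passed -1 or 1. Among genes with at least 10 estimated counts in 1 of the 2 libraries, 4.98% of 22726 were lower and 6.29% higher past 2-fold in TE5, against 2 and 1 of the 9 genes. The 2 lower genes were SOX2, which is the shRNA target and was meant to fall, and SOX2-OT. In KYSE140, 6.35% of 20747 were lower and 6.94% higher, against 1 and 0 of the 9. The median log2 fold change of the 9 was -0.19 in TE5 and -0.17 in KYSE140, against -0.01 and 0.05 over all genes.

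SOX2 had 12049 normalized counts in TE5 scramble and 4754 in TE5 shSOX2, or 39.5% of scramble (log2 fold change -1.34, 95% interval -1.39 to -1.29). KYSE140 had 28279 and 21648, or 76.6% (-0.39, -0.41 to -0.36). The silenced KYSE140 library thus kept more SOX2 than TE5 scramble had. With both lines in an edgeR quasi-likelihood fit of 6 libraries and cell line as block, the log2 fold change was -0.89 (SE 0.24) and did not pass a Benjamini-Hochberg adjusted p of 0.1 (0.569). DESeq2 called it lower, with an adjusted p of 0.03.

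SOX2-OT, the host transcript of SOX2, had 753 normalized counts in TE5 scramble and 329 in TE5 shSOX2 (-1.19, -1.39 to -1.0). KYSE140 had 1708 and 799 (-1.10, -1.23 to -0.96). It was thus at 43.7% and 46.8% of scramble, while SOX2 was at 39.5% and 76.6%. In the edgeR fit its log2 fold change was -1.16 (SE 0.17), with an unadjusted p of 0.00127 and a Benjamini-Hochberg adjusted p of 0.51, and DESeq2 gave an adjusted p of 1.61e-06. By deposited TPM the decrease was smaller, with 7.67 against 4.02 in TE5 and 22.7 against 12.1 for KYSE140, and did not reach 2-fold in either line. Against the shTP63 library of its own lane, where SOX2-OT was itself above scramble, the log2 ratio of shSOX2 was -1.70 in TE5 and -1.48 in KYSE140. Against shCCAT1 in TE5 the log2 ratio was -1.06.

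SOX9, a factor of cartilage and of columnar and ductal progenitors, had 1351 normalized counts in TE5 scramble and 3381 in TE5 shSOX2, or 250.3% of scramble (1.32, 1.23 to 1.42). Its counts in KYSE140 were few and near each other, 372 in scramble and 326 in shSOX2 (-0.19, -0.43 to 0.06). Within the TE5 lane, the log2 ratio of shSOX2 was 0.02 over shTP63 and 1.84 over shCCAT1. SOX21 had 960 and 570 normalized counts in TE5 (-0.75, -0.91 to -0.60) and 1343 and 1188 in KYSE140 (-0.18, -0.31 to -0.05). Its value turned within the TE5 lane, with a log2 ratio of -0.26 over shTP63 and 0.39 over shCCAT1. In the KYSE140 lane it was 0.12 over shTP63 (-0.00 to 0.24), so its sign was not kept there either. Neither gene passed the edgeR test over both lines (Benjamini-Hochberg adjusted p of 0.81 for SOX9 and 0.695 for SOX21).

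SOX15, the group G factor, had 2028 normalized counts in TE5 scramble and 1836 in TE5 shSOX2 (-0.14, -0.24 to -0.05). In KYSE140 it had 1828 and 2876 (0.65, 0.56 to 0.75). The transcript ENST00000250055 held most of the difference in KYSE140, with 807 and 1678 normalized counts (1.06, 0.92 to 1.20), whereas ENST00000538513 had 868 and 1004 (0.21, 0.06 to 0.36) and ENST00000570788 153 and 193 (0.33, -0.02 to 0.69). The split of a gene's reads among its transcripts is an estimate whose error the files used here do not give. SOX7 had 3768 and 5207 normalized counts in TE5 (0.47, 0.40 to 0.53) and 28.3 and 36.4 in KYSE140, where the interval reached from -0.51 to 1.22.

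SOX4, SOX12 and SOX13 stayed within a log2 fold change of 0.58 of scramble in both lines. SOX4 had 4222 and 4989 normalized counts in TE5 (0.24) and 12155 and 12704 in KYSE140 (0.06). SOX12 had 394 and 304 in TE5 (-0.37) and 1829 and 1630 in KYSE140 (-0.17). SOX13 had 8237 and 7236 in TE5 (-0.19) and 8470 and 7725 in KYSE140 (-0.13), and its transcript ENST00000367204 held between 88.9% and 92.9% of its counts in every library. The sign of SOX4 turned against the libraries of its own lane in both lines, and by library totals or TPM in KYSE140. SOX12 turned within the TE5 lane, with log2 ratios of 0.55 over shTP63 and 0.39 over shCCAT1. The comparators themselves differed from scramble. SOX4 was above it in TE5 shTP63 (0.65), TE5 shCCAT1 (0.31) and KYSE140 shTP63 (0.39). SOX12 was below it in TE5 shTP63 (-0.92) and TE5 shCCAT1 (-0.76).

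Over both lines, edgeR called 0 of the 9 genes upon SOX2 silencing, with Benjamini-Hochberg adjusted p-values between 0.51 and 0.89. It called 0.00331% of 30171 features lower, a single transcript (ENST00000539476) outside the family, and 0% higher. At an unadjusted p under 0.05, 2 of the 9 were lower and 0 higher, against 4.21% and 3.24% of all features. The 2 were SOX2, the shRNA target, and SOX2-OT. DESeq2 called the same pair lower at an adjusted p under 0.1 and 0 higher, against 2.06% and 1.19% of features. In this fit the lines stood in as replicates.

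**Figure D2:**
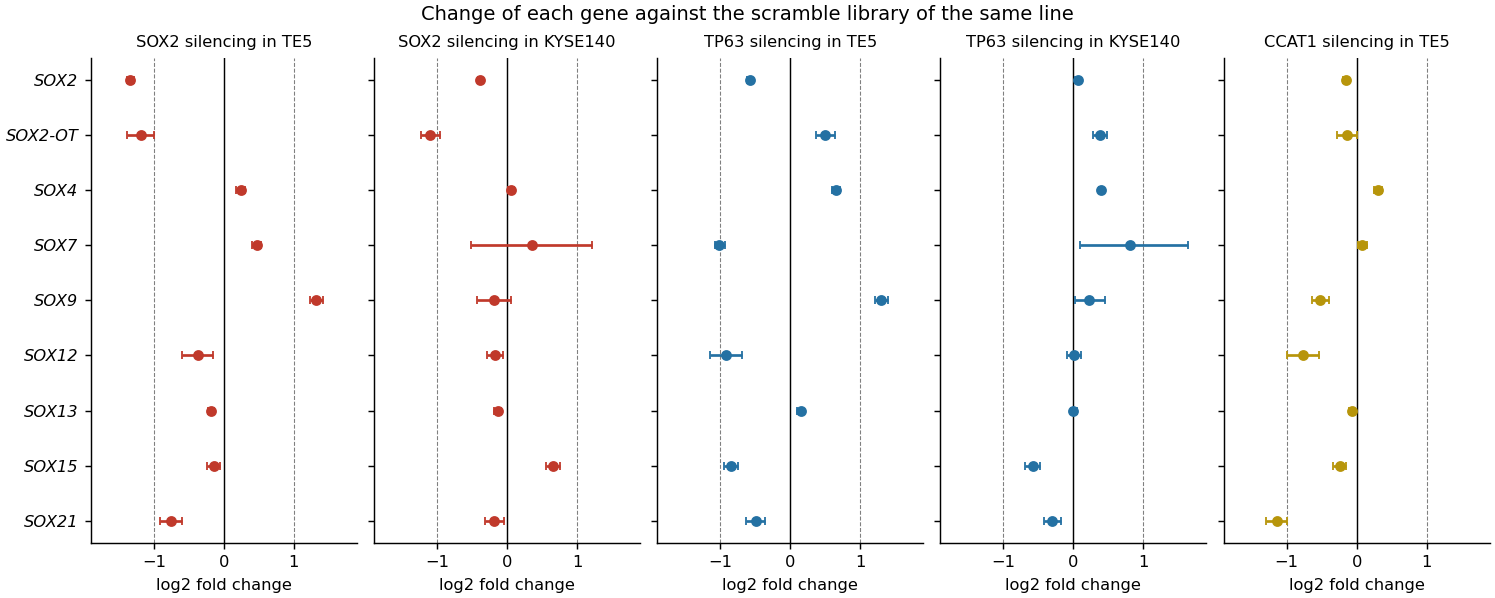
Log2 fold change of normalized counts (horizontal axes) of each gene in the 5 silencing libraries against scramble of the same line, 1 panel per comparison. Bars are 95% intervals for counting error only, solid lines mark no change and dashed lines 2-fold. SOX2-OT lies at -1.19 and -1.10 upon SOX2 silencing and at 0.50 and 0.38 upon TP63 silencing.

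**Figure D3:**
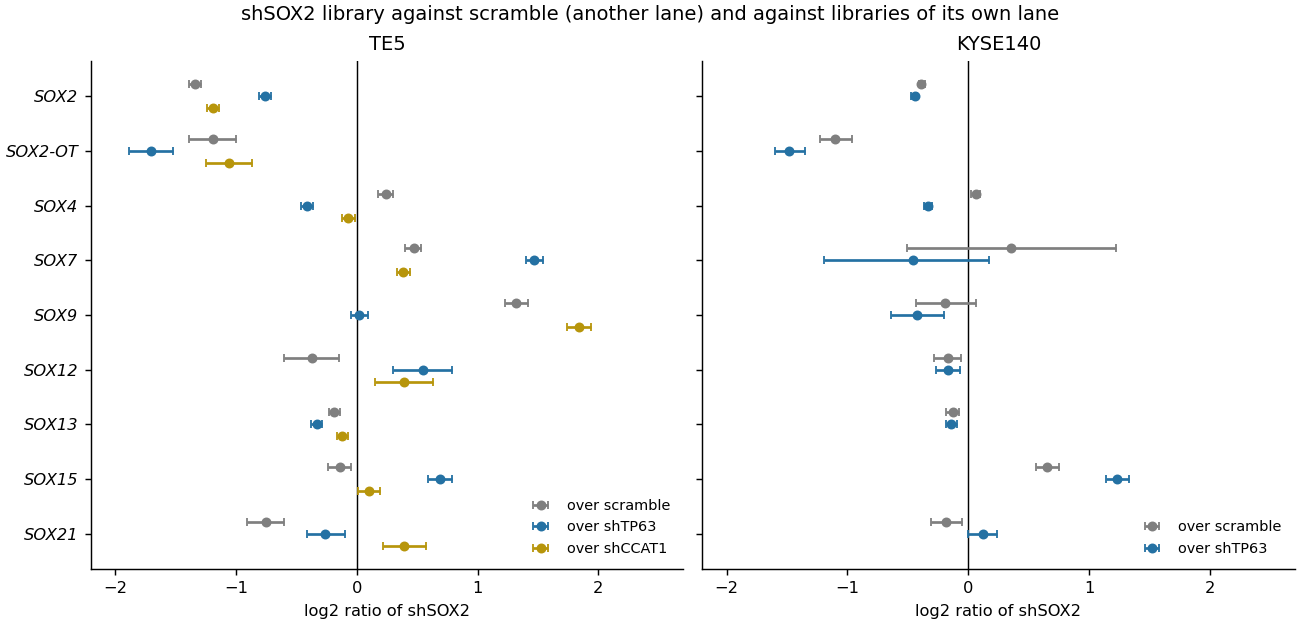
Log2 ratio of the shSOX2 library (horizontal axes) in TE5 and KYSE140 over scramble, which was sequenced in another lane, and over the other silencing libraries of its own lane. Points are single libraries and bars 95% intervals for counting error. SOX2 and SOX2-OT lie below 0 against every comparator, whereas SOX4, SOX12, SOX15 and SOX21 in TE5 lie on both sides of it.

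TP63 silencing asked whether the family followed the other master factor. SOX15 was lower and SOX4 and SOX2-OT were higher in both lines. In TE5, SOX9 was higher and SOX7 and SOX12 lower than scramble, with no such change in KYSE140. SOX12 was below scramble in all 3 silencing libraries of TE5, as were SOX2, SOX15 and SOX21. These comparisons share the same scramble library, which was sequenced on another flow cell. Past 2-fold, 5.70% of 24405 genes were lower and 14.7% higher in TE5, against 1 and 1 of the 9. In KYSE140, 4.29% of 21852 were lower and 8.87% higher, against 0 and 0 of the 9. The median of the 9 was -0.49 in TE5 and 0.06 in KYSE140, against 0.06 and 0.05 over all genes. Scaling by library totals alone moved the median of all genes in TE5 to 0.20, so that TE5 values are read relative to that shift.

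SOX15 had 2028 normalized counts in TE5 scramble and 1136 in TE5 shTP63 (-0.84, -0.94 to -0.74). In KYSE140 it had 1828 and 1222 (-0.58, -0.69 to -0.47). Its 3 transcripts were all lower in both lines, by log2 fold changes between -1.25 and -0.36. Within the TE5 lane, the log2 ratio of shTP63 over shCCAT1 was -0.59 (-0.69 to -0.50). In KYSE140 the lane held no other library than shSOX2, where SOX15 was itself above scramble. The edgeR log2 fold change was -0.70 (SE 0.23, Benjamini-Hochberg adjusted p of 0.404), and DESeq2 called it lower with an adjusted p of 0.0742.

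SOX4, a factor of progenitor cells and of epithelial-mesenchymal transition, had 4222 normalized counts in TE5 scramble and 6632 in TE5 shTP63 (0.65, 0.60 to 0.71). In KYSE140 it had 12155 and 15978 (0.39, 0.36 to 0.43). The edgeR log2 fold change was 0.54 (SE 0.13, Benjamini-Hochberg adjusted p of 0.338), and DESeq2 called it higher with an adjusted p of 0.00982. SOX2-OT had 753 and 1068 normalized counts in TE5 (0.50, 0.37 to 0.64) and 1708 and 2224 in KYSE140 (0.38, 0.28 to 0.48). Its edgeR log2 fold change was 0.46 (SE 0.17, Benjamini-Hochberg adjusted p of 0.437). DESeq2 gave 0.15. SOX2 differed from its host in TE5, with 12049 and 8043 normalized counts in TE5 (-0.58, -0.62 to -0.54) and 28279 and 29470 in KYSE140 (0.06, 0.03 to 0.08). Its sign in TE5 turned against the mean of the other libraries of the lane (0.16), which include shSOX2, and was kept against shCCAT1 alone (-0.43).

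SOX9 had 1351 and 3336 normalized counts in TE5 upon TP63 silencing (1.30, 1.21 to 1.40), nearly the level of the shSOX2 library, and 943 in the shCCAT1 library of the same lane. In KYSE140 it had 372 and 437 (0.23, 0.02 to 0.45). SOX7 had 3768 and 1877 in TE5 (-1.01, -1.08 to -0.93) and was also lower than in the other libraries of that lane, 5207 in shSOX2 and 3991 in shCCAT1. Its 2-fold mark in TE5 was lost by library totals, DESeq2 size factors and TPM, under which the log2 fold change lay between -1.0 and -0.84. In KYSE140 it had 28.3 and 50.5 (0.81, 0.09 to 1.64). SOX12 had 394 and 208 in TE5 (-0.92, -1.15 to -0.69) and 1829 and 1840 in KYSE140 (0.01, -0.09 to 0.11). Within the TE5 lane it had 232 in shCCAT1, and the log2 ratio of shTP63 over shCCAT1 was -0.15 (-0.40 to 0.09).

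SOX21 was lower in both lines by less than 2-fold, with 960 and 681 normalized counts in TE5 (-0.49) and 1343 and 1094 in KYSE140 (-0.30). Within the TE5 lane its sign turned, with a log2 ratio of shTP63 over shCCAT1 of 0.65. SOX21 was itself below scramble in shCCAT1 (-1.14). SOX13 had 8237 and 9113 in TE5 (0.15) and 8470 and 8488 in KYSE140 (0.00). Over both lines, edgeR called 0 of the 9 genes, with Benjamini-Hochberg adjusted p-values between 0.338 and 0.903, and 0% of 30171 features in either direction. At an unadjusted p under 0.05, 1 of the 9 was lower (SOX15) and 2 higher (SOX4 and SOX2-OT), against 6.62% and 4.44% of all features. DESeq2 called 1 lower and 1 higher, against 5.63% and 2.11%. The summed TPM of the squamous markers was lower in the shTP63 libraries, 1773 against 3470 in TE5 scramble and 10353 against 15851 in KYSE140 scramble, and that of the columnar markers higher, 1920 against 1185 and 1357 against 1069. Their part in the values of the SOX genes was not tested.

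CCAT1 silencing was measured in TE5 alone. SOX21, SOX12 and SOX9 were lower than scramble, and the rest lay within a log2 fold change of 0.31 of it. Past 2-fold, 5.96% of 24112 genes were lower and 12.0% higher, against 1 and 0 of the 9, and the median of the 9 was -0.15 against 0.04 over all genes. SOX21 had 960 normalized counts in scramble and 434 in shCCAT1 (-1.14, -1.30 to -0.99), the lowest of the 7 libraries. Scaled by library totals it was at -0.98. SOX12 had 394 and 232 (-0.76, -0.99 to -0.54) and SOX9 1351 and 943 (-0.52, -0.63 to -0.40). SOX2 had 12049 and 10831 (-0.15), and SOX2-OT 753 and 685 (-0.14, -0.28 to 0.01). SOX13 had 8237 and 7839 (-0.07) and SOX15 2028 and 1715 (-0.24). SOX4 had 4222 and 5223 (0.31) and SOX7 3768 and 3991 (0.08). The signs of SOX2-OT and SOX13 turned when libraries were scaled by their totals. Against the mean of the shSOX2 and shTP63 libraries of the same lane, the log2 ratio of shCCAT1 was -1.83 for SOX9, -0.52 for SOX21 and -0.12 for SOX12. The gene past 2-fold was then SOX9 and no longer SOX21. SOX9 was itself raised in these comparators, at 250.3% of scramble in shSOX2 and 247.0% in shTP63. SOX21 was itself lower there, at 59.4% and 70.9%. The signs of SOX2 (0.81), SOX2-OT (0.21), SOX15 (0.25) and SOX4 (-0.14) turned in this comparison. SOX2 and SOX2-OT were lowered in the shSOX2 library, and SOX15 in shTP63. SOX4 was above scramble in both, with log2 fold changes of 0.24 and 0.65.

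Because SOX2 lies inside SOX2-OT on the same strand, the genes were compared by transcript. As no exon of a SOX2-OT transcript in the files overlaps SOX2, and 0.81% of the 31-base words of SOX2-OT and 3.79% of those of SOX2 occur in another gene, reads of spliced transcripts can be told apart. Reads of an unspliced SOX2-OT precursor would cover SOX2 and cannot be told apart from SOX2. For each SOX2-OT count, TE5 scramble had 16.0 SOX2 counts and KYSE140 scramble 16.6. Upon SOX2 silencing, the ratio was 14.4 (12.9 to 16.2) in TE5 and 27.1 (25.1 to 29.3) in KYSE140. Upon TP63 silencing, it was 7.5 (7.1 to 8.0) and 13.2 (12.7 to 13.8). The shCCAT1 library had 15.8. By TPM, which is scaled for transcript length, the ratio was 11.7 in TE5 scramble and 8.4 in KYSE140 scramble, so the lines were less alike. It was 8.7, 4.6 and 10.4 in TE5 shSOX2, shTP63 and shCCAT1, and 10.8 and 7.6 in KYSE140 shSOX2 and shTP63. By TPM the highest ratio was thus that of TE5 scramble.

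SOX2-OT transcripts were grouped by their start, a grouping chosen after their counts had been seen. The first group, 8 transcripts starting between positions 181268542 and 181281536 of chromosome 3, was led by ENST00000498731 and held 44.9% of the SOX2-OT count of TE5 scramble and 47.3% of that of KYSE140 scramble. The second group, 5 transcripts from 181328122 to 181328397, was led by ENST00000492337 and held 42.9% and 22.7%. The third group, 15 transcripts from 181417011 to 181417628, close before SOX2, held 12.0% and 28.7%, mostly on ENST00000477928, ENST00000466034 and ENST00000600962. The remaining 7 started further upstream, with at most 2.2% in any library.

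Upon SOX2 silencing, the first group had 337.7 normalized counts in TE5 scramble against 115.6 in shSOX2 (-1.54, -1.88 to -1.24) and, in KYSE140, 808.6 against 317.6 (-1.35, -1.56 to -1.14). The second group had 322.7 against 139.7 (-1.20, -1.52 to -0.92) and 387.8 against 182.8 (-1.08, -1.38 to -0.80). The third group was lower by less, 90.4 against 71.9 in TE5, with an interval that included 0 (-0.33, -0.81 to 0.14), and 489.8 against 280.4 in KYSE140 (-0.80, -1.05 to -0.56). The order of the groups was the same in both lines, with overlapping intervals of the first and second. In KYSE140, the intervals of the second group and of the group close before SOX2 overlapped as well (-1.38 to -0.80 and -1.05 to -0.56). In TE5 they did not. Members of the third group differed in TE5, where ENST00000477928 had 54.6 against 20.3 (-1.39, -2.22 to -0.63), ENST00000466034 17.5 against 27.8 (0.64, -0.28 to 1.62) and ENST00000600962 2.56 against 16.6 (2.31, 0.89 to 6.15). In KYSE140 all 3 were lower, at -1.23, -0.92 and -0.46.

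Upon TP63 silencing, the first group was higher in both lines, at 574.3 in TE5 (0.76, 0.57 to 0.96) and 1396.0 in KYSE140 (0.79, 0.65 to 0.93). The second group was at 287.2 (-0.17, -0.39 to 0.06) and 327.2 (-0.24, -0.47 to -0.01). The third group was higher in TE5, at 194.8 (1.10, 0.75 to 1.48), and at 472.9 in KYSE140 (-0.05, -0.25 to 0.15). The share of the first group in SOX2-OT thus stood at 53.8% and 62.8%, its highest in each line. Transcripts that share exons split their reads by estimate, and no test was made between the groups.

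**Figure D4:**
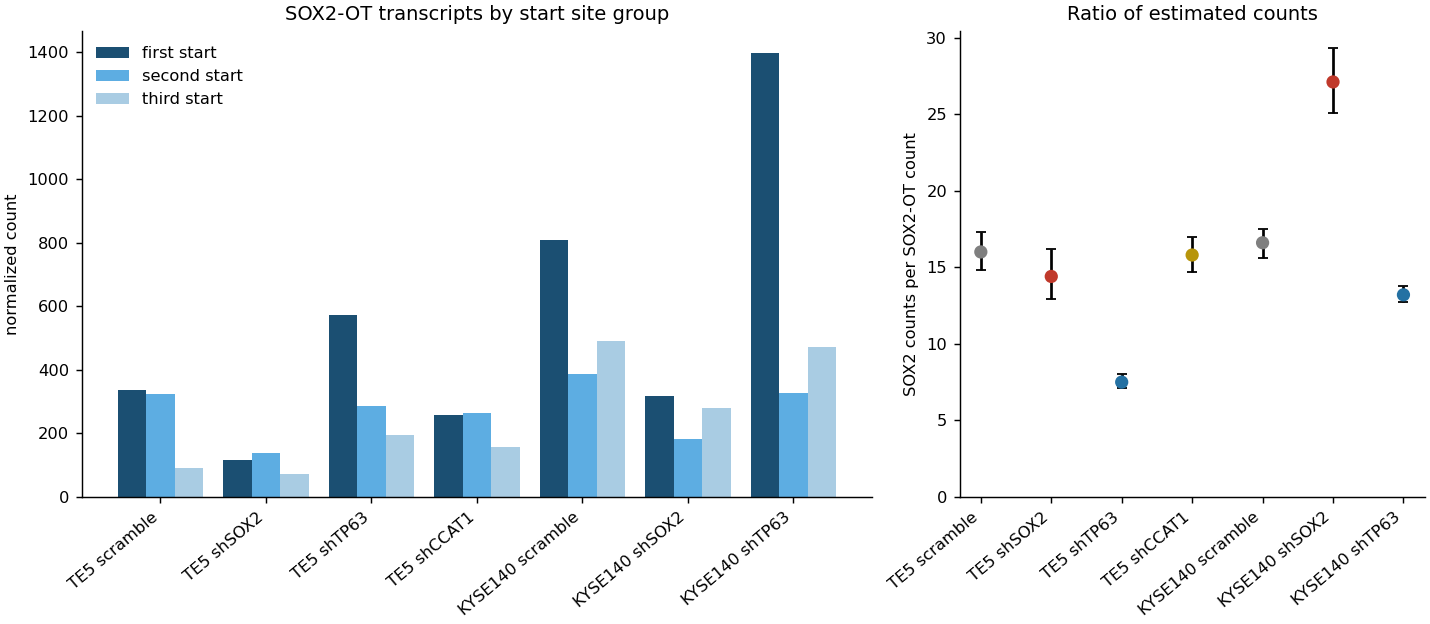
Left, normalized count (vertical axis) of the SOX2-OT transcripts of the 3 main start groups in each library. Right, SOX2 estimated counts for each SOX2-OT count, with 95% intervals for counting error. The first group is highest in the shTP63 library of each line (574.3 and 1396.0), and the ratio is highest in KYSE140 shSOX2 (27.1) and lowest in TE5 shTP63 (7.5).

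Other genes of the family were few. Of 11 further SOX genes, 6 to 8 had at least 10 counts in a comparison, and their scramble levels were at most 2.17 TPM. SOX8, a relative of SOX9, had 246 and 65.4 normalized counts in TE5 upon TP63 silencing (-1.89) and 458 and 275 in KYSE140 (-0.73). DESeq2 called it lower and edgeR did not (Benjamini-Hochberg adjusted p of 0.401). SOX6, a SOXD protein like SOX13, had 269 normalized counts in KYSE140 scramble, 436 in shSOX2 and 186 in shTP63, and between 9.06 and 102 in TE5. SOX5 had 5.69 to 51.4 in TE5 and 39.1 to 159 in KYSE140. SOX30 had 208 to 264 in KYSE140 and at most 22.8 in TE5. SOX1 had 78.1 to 207 and SOX18 64.7 to 145 over the 7 libraries. SOX10, SOX11 and SOX14 had at least 10 estimated counts in some library but at most 28 normalized counts in any.

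Of the RNAs beside SOX genes, SOX21-AS1, which starts beside SOX21 on the opposite strand, had 481 and 253 normalized counts in TE5 upon SOX2 silencing (-0.93) and 1028 and 837 in KYSE140 (-0.30), as SOX21 had -0.75 and -0.18. Upon CCAT1 silencing it had 299 (-0.68). Counting was not stated to use strand, so reads from any stretch shared by these genes cannot be told apart. SOX9-AS1 had 34.6, 16.3, 50.3 and 22.2 normalized counts in the TE5 scramble, shSOX2, shTP63 and shCCAT1 libraries and 38.6 to 41.9 in KYSE140. ROCR, an RNA near SOX9, had at most 12.5. None of these was called by edgeR or DESeq2 in either comparison, and SOX2-OT, which the list also held, is described above.

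The protein-coding genes that flank SOX2 on chromosome 3 showed no change past 2-fold in any of the 5 comparisons (0 of 5 genes, with medians from -0.11 to 0.09). Of all genes, 4.29% to 6.35% were lower and 6.29% to 14.7% higher in these comparisons, with medians from -0.01 to 0.06. A count of 0 of 5 thus does not set the flanking genes apart from all genes. FXR1, an RNA-binding protein, had log2 fold changes of 0.33 and 0.30 upon SOX2 silencing in TE5 and KYSE140, and DCUN1D1, a cullin neddylation factor, had -0.15 and -0.40. MCCC1, a mitochondrial carboxylase subunit, had -0.51 and -0.25. By edgeR 0 of the 5 were called upon either silencing, with 1 lower upon SOX2 silencing at an unadjusted p under 0.05, and by DESeq2 FXR1 was called higher (1 of 5, against 1.19% of all features).

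Among 20 factors known as partners of SOX proteins, 0 were lower and 1 higher past 2-fold upon SOX2 silencing in TE5 and 1 and 0 in KYSE140, with medians of 0.05 and -0.01 (-0.01 and 0.05 over all genes). PITX1, a homeobox factor, had -0.51 and -0.54, and CHD7, a chromatin remodeller that binds SOX2, 0.70 and 0.48. Upon TP63 silencing, 4 were lower and 1 higher in TE5 and 2 and 0 in KYSE140, with medians of -0.30 and -0.17. Over all genes, 5.70% were lower and 14.7% higher in TE5, 4.29% and 8.87% in KYSE140, and the medians were 0.06 and 0.05. TP63 itself is on this list and had -1.99 and -1.94. LEF1, a Wnt pathway factor, had -2.43 and -0.37, and CHD7 1.06 and 0.62. By edgeR 0 of the 20 were called upon either silencing. At an unadjusted p under 0.05 there were 1 lower and 1 higher upon SOX2 silencing and 5 and 1 upon TP63 silencing, and DESeq2 called 1 and 0 and 4 and 1. Of all features, 4.21% and 3.24% passed an unadjusted p under 0.05 upon SOX2 silencing and 6.62% and 4.44% upon TP63 silencing, and DESeq2 called 2.06% and 1.19%, and 5.63% and 2.11%.

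Genes known as direct SOX2 targets in stem or foregut cells did not share a direction upon SOX2 silencing, with 0 of 9 measured past 2-fold in TE5 and 0 of 10 in KYSE140, and medians of 0.02 and 0.25 (-0.01 and 0.05 over all genes). CCND1, a G1 cyclin, had 0.87 and 0.51, and JAG1, a Notch ligand, 0.43 and 0.42. SOX21, which is on this list too, had the largest decrease in the same direction in both lines. Upon TP63 silencing, 3 of 10 were lower and 1 higher in TE5 and 0 and 3 of 12 in KYSE140, with medians of -0.20 and -0.23, against 5.70% and 14.7% of all genes in TE5 and 4.29% and 8.87% in KYSE140 and medians of 0.06 and 0.05. GLI2, a Hedgehog effector, had -1.74 and -0.71 and JAG1 -1.07 and -0.81, whereas BMP4 was higher, at 0.67 and 1.17. Of this list edgeR called 0, with 0 lower and 2 higher at an unadjusted p under 0.05 upon SOX2 silencing and 3 and 1 upon TP63 silencing, and DESeq2 called 0 and 1, and 3 and 0. The shares of all features are those given for the partner factors.

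SOX9 targets of cartilage were mostly low. Upon SOX2 silencing, 6 of 11 were measured in TE5, with 0 lower and 2 higher past 2-fold and a median of 0.54, and upon TP63 silencing 0 and 2, with a median of 0.78. Of all genes in TE5, 6.29% and 14.7% were higher upon these silencings, with medians of -0.01 and 0.06. In KYSE140, the medians of 7 measured genes were -0.04 and 0.34, with 0 past 2-fold upon SOX2 silencing and 0 lower and 2 higher upon TP63 silencing (8.87% of all genes higher, medians over all genes of 0.05 for both). COL9A3, a collagen chain of cartilage, had -0.19 and -0.81 upon SOX2 silencing and 0.62 and 0.96 upon TP63 silencing, in TE5 and KYSE140. Neither edgeR nor DESeq2 called any of the 7 genes tested, and 0 had an unadjusted edgeR p under 0.05. The 8 basal squamous markers had medians of 0.21 and 0.59 upon SOX2 silencing (-0.01 and 0.05 over all genes). Upon TP63 silencing they had -0.34 and -0.68 (0.06 and 0.05 over all genes). Past 2-fold, 1 was lower in TE5 (KRT14, 29.4 normalized counts in scramble) and 0 in KYSE140 upon SOX2 silencing, and 1 and 2 upon TP63 silencing. None was higher past 2-fold. Of all genes, 4.98% and 6.35% were lower upon SOX2 silencing and 5.70% and 4.29% upon TP63 silencing. ITGA6, the basal integrin, had 0.35 and 0.92 and then -0.87 and -0.92. KRT5, a basal keratin, had -1.81 and -0.70 upon TP63 silencing. LAMB3 had 0.64 and 0.54 upon SOX2 silencing and 0.60 and -0.21 upon TP63 silencing, where COL17A1 had 0.09 and 0.02. Upon TP63 silencing, 6 of the 8 were below 0 and 2 above it in TE5, and 7 and 1 in KYSE140. By edgeR 0 of 8 were called, with 0 lower and 2 higher at an unadjusted p under 0.05 upon SOX2 silencing and 3 and 0 upon TP63 silencing, and DESeq2 gave the same numbers of calls, with the shares of all features as above.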

How the data were processed

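RNA-seq was available here for 7 libraries. Per the study's methods and labels, reads were pseudoaligned by Kallisto against Ensembl transcripts (hg19). For each of 196354 transcripts the authors deposited the estimated counts, which carry no scaling between libraries, and TPM. Transcripts were assigned to genes by Ensembl ID with GENCODE 44 mapped to hg19 (182863 transcripts, 93.58% of counts), and 13491 unassigned transcripts entered the edgeR fit alone.

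Gene counts were scaled by TMM over all 7 libraries (edgeR 4.0.16, R 4.3.3) and log2((silenced + 1)/(scramble + 1)) was taken where either library had at least 10 counts, with exact binomial 95% intervals for counting error and no p-value. Both lines entered edgeR's quasi-likelihood test (rounded counts, 6 libraries, cell line as block, filterByExpr, 2 residual degrees of freedom, common dispersion 0.141), with a Benjamini-Hochberg adjusted p under 0.1. DESeq2 1.42.0, other scalings, filters, pseudocounts, thresholds, same-lane comparators and leaving out each library were alternatives. The p-values treat the 2 lines as replicates. Scripts were tested on simulated data. The 31-base words and promoter windows came from the GENCODE transcripts and the hg19 genome.

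All 9 genes are named in every library. From each list, the text names up to 2 genes for each silencing with the largest mean decrease and increase in the same direction in both lines, with at least 100 normalized counts in 1 library of each line, further SOX genes and RNAs beside them with at least 10 counts, and transcripts with at least 5% of a gene's counts. The genes and lists were chosen with earlier results of these data known.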

Additional observations from a re-analysis of the deposited data

Results flagged for a closer look

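SOX15, SOX2 and SOX7 each lay on opposite sides of scramble in the lines, with intervals for counting error away from 0. Upon SOX2 silencing, SOX15 had a log2 fold change of -0.14 in TE5 and 0.65 in KYSE140. When TP63 was silenced, SOX2 had -0.58 in TE5 and 0.06 in KYSE140, and SOX7 had -1.01 in TE5 and 0.81 in KYSE140. The difference between the lines was not tested, since each condition had 1 library per line. SOX7 had 28.3 and 50.5 normalized counts in KYSE140, and its reads are shared in part with PINX1. Against the mean of the other libraries of the same lane, SOX15 in shSOX2 was at 0.40 in TE5 and 1.23 in KYSE140, but these comparators include shTP63, where SOX15 was lower than scramble, and over shCCAT1 alone it was at 0.10 in TE5. SOX2 in shTP63 was at 0.16 and 0.44 in the same comparison, no longer on opposite sides, with shSOX2 among the comparators in TE5 and the lone one in KYSE140. Over shCCAT1 alone it was at -0.43 in TE5. SOX7 in shTP63 was at -1.28 and 0.46. The KYSE140 value is over shSOX2 alone. Read as shSOX2 over shTP63 it was -0.46, with an interval that included 0 (-1.19 to 0.17), so opposite sides were not shown there.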

How the results depend on the processing

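The signs of SOX2 and SOX2-OT upon SOX2 silencing held in both lines under every scaling and comparator run, with SOX2-OT between -1.20 and -0.92 in TE5 and between -1.18 and -0.90 in KYSE140 under the scalings and pseudocounts other than no scaling. By TPM, 1 of the 9 genes, the target SOX2, was lower past 2-fold upon SOX2 silencing in TE5. By the same measure 0 were lower in KYSE140, and 0 upon TP63 silencing in TE5. The last was also 0 with DESeq2 size factors, and 0 with totals alone, as upon CCAT1 silencing, totals having been added after the data were seen. Without scaling, 0 were lower upon SOX2 silencing in KYSE140, 0 lower and 2 higher upon TP63 silencing in TE5, 1 higher upon TP63 silencing in KYSE140 and 0 lower upon CCAT1 silencing. Against same-lane libraries, 1 was lower and 0 higher upon SOX2 silencing in TE5 (1369 and 1472 over all genes). In KYSE140, 1 was lower and 1 higher upon SOX2 silencing (1382 and 1508) and likewise upon TP63 silencing (1091 and 2393). These KYSE140 values are a single ratio, shSOX2 over shTP63, and its inverse. SOX15 stood at 1.23 and -1.23 and SOX2-OT at -1.48 and 1.48. At a log2 threshold of 0.58, 1 was higher upon SOX2 silencing in KYSE140, 4 were lower and 2 higher upon TP63 silencing in TE5, 1 lower and 1 higher in KYSE140, and 2 lower upon CCAT1 silencing. Adding an unassigned transcript listed directly before that of SOX2, an alternative added after the data were seen, left SOX2 at -1.38 in TE5 and -0.39 in KYSE140 upon SOX2 silencing.

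Counts over all genes follow as lower and higher, for SOX2 silencing in TE5 and KYSE140, TP63 silencing in TE5 and KYSE140 and CCAT1 silencing in TE5. With a minimum of 1 count they were 4642 and 5226, 4539 and 4847, 4057 and 6789, 3480 and 4820, and 6023 and 4590. With a minimum of 50 counts they were 373 and 338, 433 and 467, 805 and 1407, 330 and 472, and 491 and 740. At a log2 threshold of 0.58 they were 2749 and 3013, 2769 and 2944, 3575 and 6077, 2215 and 3638, and 2869 and 4949. With a pseudocount of 10, SOX2 silencing gave 547 and 627 in TE5 and 793 and 855 in KYSE140, TP63 silencing 1809 higher in TE5 and 552 and 820 in KYSE140, and CCAT1 silencing 900 and 1349. Without scaling, TP63 silencing gave 617 and 6060 in TE5 and 377 and 4686 in KYSE140, and CCAT1 silencing 952 and 4550. By TPM, 898 were higher upon SOX2 silencing in KYSE140 and 838 lower upon TP63 silencing in TE5.

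None of the 9 genes was called in any of 12 edgeR fits, of which 6 left out a library and kept 1 residual degree of freedom, too few to say anything of stability. The lowest Benjamini-Hochberg adjusted p-values were 0.159 for SOX2-OT and 0.302 for SOX2 upon SOX2 silencing and 0.186 for SOX4 upon TP63 silencing. These came without the unassigned transcripts, a fit added after the data were seen, which called 29 features lower and 5 higher upon SOX2 silencing and 174 and 46 upon TP63 silencing. DESeq2 called 623 and 359, and 1698 and 638, with 2 of the 9 genes lower upon SOX2 silencing and 1 lower and 1 higher upon TP63 silencing. The 1 call upon SOX2 silencing was 0 without the cell line block, at an adjusted p of 0.05, and when any library was left out. Leaving out each library turned the edgeR log2 fold change of SOX7 (from -0.36 without TE5 shSOX2 to 0.97), SOX9 (from -0.11 without TE5 scramble to 1.21) and SOX15 (from -0.08 without KYSE140 shSOX2 to 0.56) upon SOX2 silencing. Upon TP63 silencing it turned that of SOX2 (from -0.64 to 0.12 without TE5 scramble), SOX7 (from -1.01 to 0.87 without TE5 shTP63) and SOX13 (from -0.03 without TE5 shTP63 to 0.17). Counting the most abundant SOX2-OT transcript alone, the SOX2 to SOX2-OT ratio was 36.3, 41.1, 14.2 and 42.1 in TE5 scramble, shSOX2, shTP63 and shCCAT1 and 35.2, 68.7 and 21.2 in KYSE140 scramble, shSOX2 and shTP63. Where no cause is shown by how an alternative is built, the cause was not tested. At their counts in KYSE140, no change of SOX7 or SOX9 upon SOX2 silencing was detectable, since the intervals included 0.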

Other observations

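The genes whose pattern over the 7 libraries, after subtracting the mean of each line, was most like that of SOX2-OT were CMAS (r = 0.997), RAB11FIP1 (0.993) and IDH1 (0.992), of 12282 genes with at least 100 normalized counts in every library. For SOX2 they were NOL7 (0.991), ATP5IF1 (0.990) and MTG1 (0.989), for SOX9 MMD (0.995), ETV1 (0.993) and ALAS1 (0.988), and for SOX15 TRPT1 (0.997), RAB36 (0.996) and FUOM (0.993). For SOX4 the first was SENP5 (0.988), for SOX12 FN3KRP (0.986), for SOX13 SH3RF1 (0.990) and for SOX21 GEMIN8P4 (0.988). With so few libraries, between 78 and 468 genes passed 0.9 for each SOX gene, and all values share the same libraries and scaling, so these likenesses are descriptions.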
